A study of Mus musculus with 12 samples.

Results

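Pkdcc, Mlph, Lrpap1 and Awat1 are 4 of the 20551 genes measured in airway macrophages (AMs) of mice, and they were picked from these same libraries because they were higher in Scnn1b-transgenic (Scnn1b-Tg) than in wild-type (WT) AMs in both culture conditions. Their genotype difference is therefore given below as a description, without a test. The 4 groups were WT AMs in medium, WT AMs with lipopolysaccharide (LPS), Scnn1b-Tg AMs in medium and Scnn1b-Tg AMs with LPS, with 3 libraries each and 12 in all. LPS of Pseudomonas aeruginosa was given at 100 ng/ml for 12 h. All mice were on a C57BL/6 background and 6 weeks old, and the methods name females for the sequenced cells. Scnn1b-Tg mice carry the beta subunit of the epithelial sodium channel under the club cell secretory protein promoter, which is active in airway epithelium and not known as a macrophage promoter, so the AMs are taken from lungs whose epithelium is altered. The cells of 3 to 4 animals formed a pool. By the numbers in the labels, each of the 6 pools (WT 16, 17 and 18, and Scnn1b-Tg 17, 18 and 19) gave 1 medium and 1 LPS library. Libraries were prepared in 2 batches by the labels, with WT 16, WT 17 and Scnn1b-Tg 17 in batch 1 and WT 18, Scnn1b-Tg 18 and Scnn1b-Tg 19 in batch 2.

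The 4 genes encode proteins with unrelated tasks. Pkdcc (vertebrate lonesome kinase) is a tyrosine kinase that enters the secretory pathway and phosphorylates secreted and extracellular proteins. Mlph (melanophilin) is an effector of the small GTPase Rab27a, best known from pigment cells, where it links Rab27a on the melanosome to the motor myosin Va. Lrpap1 (receptor-associated protein, RAP) is a chaperone of the endoplasmic reticulum that keeps ligands away from newly made endocytic lipoprotein receptors, among them Lrp1, an endocytic receptor that macrophages use for remnant lipoproteins, protease complexes and dying cells. Awat1 is an acyltransferase of the DGAT2 family that joins fatty alcohols to acyl groups to form wax esters, and it is known from sebaceous glands. AMs themselves clear surfactant lipid, particles and microbes from the airspace, and LPS, sensed through Toll-like receptor 4, switches them to an inflammatory program.

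On the mm10 build Pkdcc (ENSMUSG00000024247) spans bases 83215292 to 83225070 of chromosome 17 on the plus strand, with 8 merged exons. Mlph (ENSMUSG00000026303) spans 90915085 to 90951142 of chromosome 1 on the plus strand, with 16 exons. Lrpap1 (ENSMUSG00000029103) lies on the minus strand of chromosome 5 from 35091501 to 35105766, with 9 exons, and Awat1 (ENSMUSG00000015665) on the plus strand of chromosome X from 100572251 to 100578205, with 7 exons. The genes are thus on 4 chromosomes. No exon of any of them overlaps an exon of another annotated gene, so counting without regard to strand does not mix their reads with those of an overlapping gene.

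The stretches upstream of the starts are shown because Mlph and Awat1 fell together with LPS while Pkdcc did not respond, as described further on. Each is the 250 bases before the RefSeq start (GRCm38.p6), 5′ to 3′ on the strand of the gene, with every match to a searched motif in capitals. For Mlph this start lies past the annotated gene start given above, so the last bases of its window lie within the gene. The Lrpap1 window, at bases 35105700 to 35105949 of chromosome 5, reaches further into its annotated gene and is described without being printed.
Pkdcc, chr17:83215033-83215282 (plus strand): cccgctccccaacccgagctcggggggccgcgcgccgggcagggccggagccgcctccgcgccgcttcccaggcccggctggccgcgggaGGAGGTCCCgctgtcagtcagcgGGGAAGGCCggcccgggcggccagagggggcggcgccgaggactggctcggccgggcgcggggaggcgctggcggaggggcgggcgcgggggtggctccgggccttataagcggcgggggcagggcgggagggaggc
Mlph, chr1:90914850-90915099 (plus strand): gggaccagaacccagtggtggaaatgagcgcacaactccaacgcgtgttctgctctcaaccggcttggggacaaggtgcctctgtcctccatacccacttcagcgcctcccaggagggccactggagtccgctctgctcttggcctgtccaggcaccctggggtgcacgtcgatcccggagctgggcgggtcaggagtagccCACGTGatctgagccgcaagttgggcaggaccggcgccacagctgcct
Awat1, chrX:100571997-100572246 (plus strand): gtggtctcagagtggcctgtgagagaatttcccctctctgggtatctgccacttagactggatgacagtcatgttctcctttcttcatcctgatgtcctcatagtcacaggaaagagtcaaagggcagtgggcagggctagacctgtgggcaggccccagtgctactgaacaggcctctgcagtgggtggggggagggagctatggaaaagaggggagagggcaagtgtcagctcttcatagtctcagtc
Both strands were searched for the PU.1 core GAGGAA, AP-1 (TGANTCA), C/EBP (TTGCNNAA), IRF (GAAANNGAA), NF-kB (GGGANNNCC), the E-box CACGTG, the nuclear receptor core AGGTCA and TATAAA, with N for any base. Pkdcc held 2 NF-kB matches, at bases -160 to -152 and -137 to -129 from the start, a motif found in 15.9% of 32536 distinct mouse windows of this length. Mlph held 1 E-box at -48 to -43, found in 6.04% of windows. None of the 8 motifs matched in the windows of Awat1 and Lrpap1, where the remaining motifs had background shares between 6.73% and 23.4% (PU.1 core). The windows differ in base composition: G and C made up 83.2% of the Pkdcc window, 64.8% of the Mlph window, 60.8% of the Lrpap1 window and 54.8% of the Awat1 window, against a median of 52.4%. CpG dinucleotides numbered 36, 14, 14 and 0 in the same order, against a median of 6. These are descriptions of letters, and binding was not measured in these files.

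Total deposited counts were 48.2 to 60.9 M per library, and a value of up to 8 counts, the worth of 3 reads, was taken as the floor of detection, which is 0.131 to 0.166 CPM (counts per 1 M counts of the library). Of 15 alveolar macrophage markers all were detected, with a summed level of at least 10700 CPM in every library. Chil3 made up much of this sum, with group means of 7954 to 12600 CPM. Scnn1b itself was at 0 to 0.755 CPM in all 12 libraries and did not separate the genotypes, and since the transgene is driven in epithelium this checks neither the labels nor the construct. Xist, the RNA of the inactive X chromosome, had 0 counts in both libraries of Scnn1b-Tg pool 19 and 211 to 1439 counts in the other 10 libraries. It also varied among these, at 4.21 to 6.83 CPM in WT pools 16 and 17, 24.6 CPM in medium and 8.08 CPM with LPS in Scnn1b-Tg 17, and 22.4 to 24.7 CPM in WT 18 and Scnn1b-Tg 18. Kdm6a and Eif2s3x, X-linked genes that escape inactivation, were lowest in pool 19 in both treatments. These values go against the females named in the methods for pool 19, and the make-up of the other pools was not tested. The genotype folds, the LPS tests and the comparisons of responses and of batches for the 4 genes are therefore also given without pool 19, a choice made after the values were seen; the levels per exon length and the rankings of similar profiles are not.

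The plot of expression by library shows the pattern for which the genes were picked. CPM scaled by trimmed mean of M-values (TMM) are used for the levels.

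**Figure D1:**
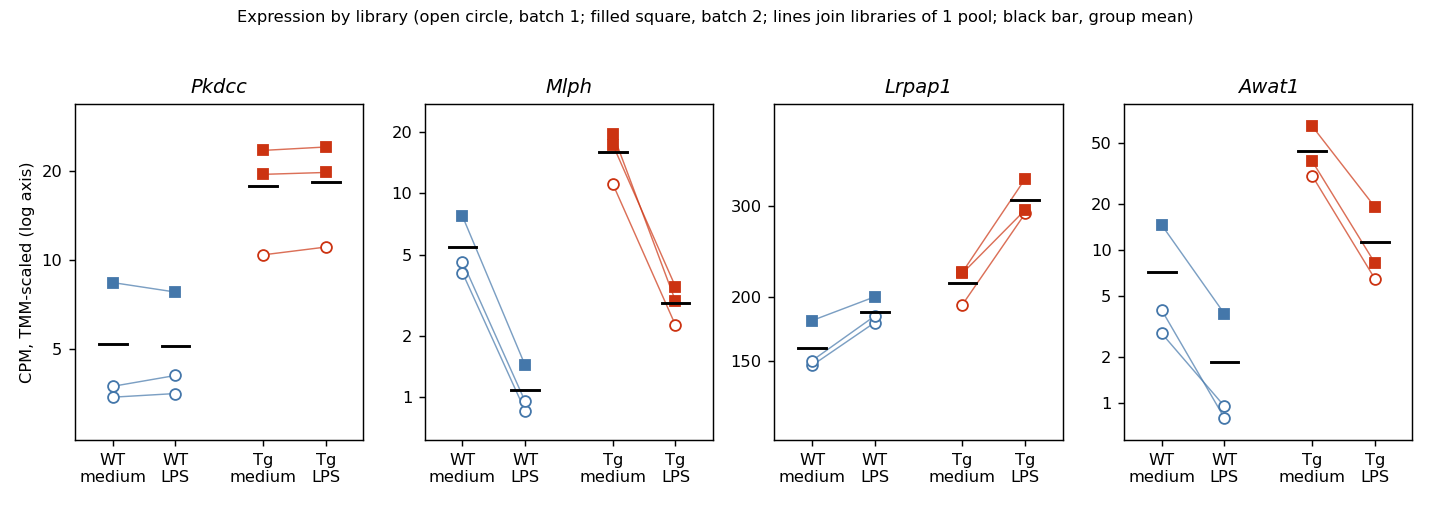
CPM of the 4 genes (log axis) in the 12 libraries by group, with lines joining the medium and LPS library of a pool, open circles for batch 1, filled squares for batch 2 and black bars for group means. Scnn1b-Tg libraries lie above WT libraries of the same treatment for each gene, Mlph and Awat1 drop with LPS in every pool, Pkdcc stays level, and batch 2 pools lie above batch 1 pools of their group.

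Pkdcc was at 3.72, 3.42 and 8.36 CPM in medium in WT pools 16, 17 and 18, and at 10.4, 23.4 and 19.4 CPM in Scnn1b-Tg pools 17, 18 and 19. With LPS the WT pools had 4.05, 3.52 and 7.76 CPM and the transgenic pools 11.02, 24.0 and 19.7 CPM. The lowest Scnn1b-Tg library lay above the highest WT library in both treatments, with the smallest gap between Scnn1b-Tg 17 and WT 18, which belong to different batches. The fitted difference, with the batch as a term, was 2.76-fold in medium and 2.82-fold with LPS.

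Mlph was at 4.08, 4.62 and 7.74 CPM in WT and at 11.1, 17.3 and 19.6 CPM in Scnn1b-Tg AMs in medium. With LPS the WT pools had 0.859, 0.954 and 1.43 CPM and the Scnn1b-Tg pools 2.25, 3.48 and 2.96 CPM, so that the order of the genotypes was kept at a level about 5 times lower. The fitted difference was 2.52-fold in medium and 2.30-fold with LPS. The lowest of these Mlph values, in WT 16 with LPS, rests on 43 deposited counts and is above the floor.

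Lrpap1, the most abundant of the 4 transcripts, had the smallest genotype difference. In medium its level was 147.0, 150.2 and 179.8 CPM in WT pools, below the 193.2, 222.3 and 223.5 CPM of the transgenic pools. With LPS the WT pools had 178.2, 183.5 and 200.0 CPM and the transgenic pools 290.7, 295.4 and 339.7 CPM. The groups were closer to each other in medium than with LPS, with a fitted 1.28-fold difference in medium and 1.58-fold with LPS.

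Awat1 had the largest genotype difference and the widest spread between pools. In medium WT pools had 4.05, 2.85 and 14.6 CPM and Scnn1b-Tg pools 30.6, 38.1 and 64.5 CPM. With LPS the WT pools had 0.799, 0.954 and 3.83 CPM and the Scnn1b-Tg pools 6.497, 8.24 and 19.2 CPM. Pool WT 18 stood between its genotype and the transgenic pools in both treatments, and Scnn1b-Tg 19, the pool without Xist counts, was highest. The fitted difference was 5.50-fold in medium and 5.03-fold with LPS.

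As every Scnn1b-Tg library lay above every WT library, the direction within a batch was fixed by the selection, and the ratios are given for their size. In batch 1, with 2 WT pools and 1 Scnn1b-Tg pool, the ratio of mean CPM in medium was 2.90 for Pkdcc, 2.55 for Mlph, 1.30 for Lrpap1 and 8.87 for Awat1. In batch 2, with 1 WT pool and 2 Scnn1b-Tg pools, it was 2.56, 2.39, 1.24 and 3.52. The Awat1 ratio thus moved most between batches, also with LPS (7.41 and 3.57). Without Scnn1b-Tg pool 19 the fitted differences in medium were 2.87-fold for Pkdcc, 2.42-fold for Mlph, 1.28-fold for Lrpap1 and 5.33-fold for Awat1, and with LPS 2.97-, 2.44-, 1.54- and 4.28-fold.

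How common the pattern is can be read from the whole table. All 3 Scnn1b-Tg libraries lay above all 3 WT libraries in medium for 9.02% of the 13729 genes tested and with LPS for 5.72%, and 200 genes did so in both. By the smaller of the 2 fitted log2 differences Awat1 was 4th, Pkdcc 11th, Mlph 17th and Lrpap1 112th among those 200. The genotype contrast called 0.262% of genes in medium and 0.051% with LPS at an adjusted p of 0.05 (edgeR). As the rule used these contrasts, nothing is read from these shares for the 4 genes.

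Summed cell type markers differed between the genotypes. For 15 airway epithelial markers the WT libraries in medium summed to 106 to 131 CPM, against 44.4 to 77.5 CPM for the transgenic libraries. With LPS the sums were 83.3 to 137 against 37.5 to 73.2 CPM, so they were lower where the 4 genes were higher. Scgb1a1 was the largest part of the WT sums. Its mean was 54.3 CPM for WT against 19.5 CPM for transgenic AMs in medium, and 62.7 against 25.2 CPM with LPS. The fitted log2 difference in medium went the other way, higher in transgenic AMs, for 2 of the 11 tested markers, Scgb3a1 (0.80) and Cdh1 (0.20). With LPS it did so for 0 of the 11. Muc5ac was at the floor, and 0 of the 11 were called in either treatment (edgeR). The alveolar macrophage markers summed to 16950 to 17540 CPM in WT and 19660 to 23390 CPM in Scnn1b-Tg AMs in medium and overlapped with LPS (10700 to 12950 and 12430 to 17760 CPM). Neutrophil markers summed to 13.1 to 18.6 CPM in WT and 20.01 to 29.0 CPM in Scnn1b-Tg AMs in medium, and to 12.8 to 13.9 against 15.1 to 20.01 CPM with LPS, with S100a9, Ngp and Mmp9 at the floor in all 12 libraries. Monocyte markers summed to 129 to 152 CPM in WT and 91.3 to 110 CPM in Scnn1b-Tg AMs in medium, where Cd14 was lower in Scnn1b-Tg AMs (-0.79, edgeR adjusted p = 0.01005), and overlapped with LPS. Fibroblast markers were low, at 2.87 to 3.44 CPM against 3.98 to 5.48 CPM in medium, with Col1a1, Col3a1, Postn, Col14a1 and Mfap5 at the floor. Most of that sum was Pdgfra, with means of 2.89 and 4.60 CPM. The members of these lists did not all go with the sums. In medium the fitted difference was higher in Scnn1b-Tg AMs for 12 of 15 alveolar macrophage markers and 3 of 5 tested neutrophil markers. It was so for 3 of 7 tested monocyte markers and 2 of 3 tested fibroblast markers. The part of these differences in the levels of the 4 genes was not tested, and in bulk samples a change in the number of cells of a type cannot be told apart from a change in RNA per cell.

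Levels between genes can be compared per exon length. In WT medium Lrpap1 had 38.6 ± 4.39 CPM per kb of exon, Awat1 5.15 ± 4.64, Pkdcc 1.91 ± 1.02 and Mlph 1.02 ± 0.368 (SD, n = 3). In Scnn1b-Tg medium the values were 51.8 ± 4.17, 32.0 ± 12.8, 6.54 ± 2.46 and 2.99 ± 0.823 CPM per kb (SD, n = 3), so the distance between Awat1 and Lrpap1 was much narrower in the transgenic AMs. With LPS the order in WT was Lrpap1, Pkdcc, Awat1 and Mlph, but Awat1 at 1.34 ± 1.23 and Pkdcc at 1.89 ± 0.852 CPM per kb did not differ beyond their spread.

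The response to LPS was not used to pick the genes and was tested. It divided them into 3 kinds: Mlph and Awat1 fell steeply in both genotypes, Lrpap1 rose, and Pkdcc showed no detectable change. In WT AMs 3 of the 4 genes passed an adjusted p of 0.05 (edgeR quasi-likelihood test, Benjamini-Hochberg over 13729 genes), where 30.9% of all genes did, and in Scnn1b-Tg AMs the same 3 passed, where 36.7% of all genes did. With so many genes responding, 3 calls of 4 are not read as particular to these genes. The share of all genes whose LPS and medium libraries do not overlap is not given here. Non-overlap of such libraries, where mentioned below, is therefore not read as particular to a gene either.

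After LPS, the 3 WT pools kept 18.5% to 21.03% of the Mlph level in medium and the 3 transgenic pools 15.1% to 20.3%. The fitted log2 fold change in WT AMs was -2.32 (SE 0.13, adjusted p = 6.12e-07 by edgeR) and in transgenic AMs -2.45 (SE 0.13, adjusted p = 1.76e-07 by edgeR), that is 4.99-fold and 5.45-fold lower. LPS libraries did not overlap medium libraries of their genotype. It passed under all 22 alternatives in both genotypes, with adjusted p of at most 0.000264 in WT and 8.32e-05 in Scnn1b-Tg AMs.

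Awat1 retained 19.7% to 33.5% of its medium level in WT and 21.2% to 29.7% in transgenic pools. In the fit the log2 change in WT AMs was -1.92 (SE 0.42, adjusted p = 0.00492 by edgeR) and in transgenic AMs -2.05 (SE 0.38, adjusted p = 0.00164 by edgeR). The WT groups overlapped, because WT 18 with LPS (3.83 CPM) lay above WT 17 in medium (2.85 CPM), while all 3 pools fell; the Scnn1b-Tg groups did not overlap. Without a batch term the calls were lost, with values of -1.94 (edgeR adjusted p = 0.0805) and -1.98 (edgeR adjusted p = 0.0518).

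Lrpap1 rose in all 6 pools, to 111% to 122% of the medium level in WT and 133% to 152% in Scnn1b-Tg AMs. The log2 fold change in WT AMs was 0.24 (SE 0.07, adjusted p = 0.0252 by edgeR) and in transgenic AMs 0.54 (SE 0.07, adjusted p = 0.000149 by edgeR). The Scnn1b-Tg call held under all 22 alternatives. The WT call held under 16 of 22, and was lost without WT medium 16 (0.22, edgeR adjusted p = 0.0836), WT medium 17 (0.23, 0.0818), WT LPS 17 (0.22, 0.0651) or WT LPS 18 (0.26, 0.0605), without a batch term (0.24, 0.141) and on the 6 WT libraries alone (0.27, 0.0614).

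Pkdcc kept its level. Its LPS libraries were at 92.9% to 109% of medium in WT and 102% to 106% in transgenic pools, with changes of 0.01 (SE 0.12, edgeR adjusted p = 0.949) and 0.05 (SE 0.12, edgeR adjusted p = 0.782) on the log2 scale. The 95% intervals of the fold ran from 0.837 to 1.22 in WT and from 0.865 to 1.24 in Scnn1b-Tg AMs, so a larger rise or fall than these lies outside the intervals. Without Scnn1b-Tg pool 19 the 3 calls were kept in both genotypes, with Lrpap1 in WT at an edgeR adjusted p of 0.05 when rounded (0.04999) and Pkdcc at 0.02 and 0.06 on the log2 scale.

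Most alveolar macrophage markers also fell with LPS (edgeR). In WT 10 of 15 fell and 3 rose, where 15.7% of all genes tested fell and 15.2% rose. In Scnn1b-Tg AMs 11 of 15 fell and 2 rose, where 17.8% of all genes fell and 18.8% rose. The median log2 fold changes of the markers were -1.46 and -1.72 against 0.00 and -0.02 over all genes tested. Chil3, the most abundant of these markers, was not called in either genotype (-0.32 and -0.35). Whether the fall of Mlph and Awat1 goes with these markers was not tested. In the same libraries summed monocyte markers rose from 129 to 152 CPM in WT medium to 762 to 810 CPM in WT LPS, a sum that includes Cd14, which AMs themselves express. The list did not rise as a set: of 7 tested markers 2 rose in WT (Cd14 and Treml4) and 2 fell (Ccr2 and Ace; edgeR).

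**Figure D2:**
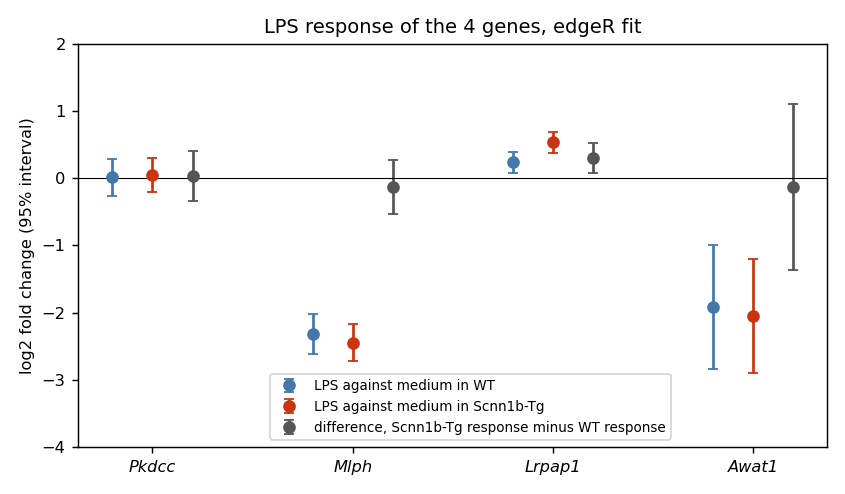
Fitted log2 fold changes with 95% intervals for LPS against medium in WT (blue) and Scnn1b-Tg (red) AMs and for the difference of these responses (grey). The intervals of Pkdcc cross 0, those of the 2 Mlph responses lie between -2.73 and -2.02, and the interval of the Lrpap1 difference lies above 0 although its adjusted p is 0.709.

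The responses of the genotypes were compared by the interaction, whose sign the selection did not fix although it used both genotype differences. None of the 4 genes passed (edgeR, 0 of 4), and 0.0% of all genes did, with 795 genes at an unadjusted p under 0.05. Neither DESeq2 nor voom with the pool as a random effect called any of the 4. Lrpap1 was the 1 gene of the 4 with an unadjusted p under 0.05: its rise was 0.30 larger on the log2 scale in Scnn1b-Tg AMs (SE 0.10, 95% interval 0.08 to 0.52, edgeR adjusted p = 0.709), and the smallest transgenic rise (133% of medium) exceeded the largest WT rise (122%). For Mlph the difference of responses was -0.13 (interval -0.53 to 0.27), for Pkdcc 0.04 (-0.34 to 0.41) and for Awat1 -0.13 (-1.36 to 1.11), the last wide enough to hold a response that differed 2-fold between genotypes. Without Scnn1b-Tg pool 19 the differences were 0.26 for Lrpap1, 0.01 for Mlph, which thus changed sign, 0.05 for Pkdcc and -0.32 for Awat1, again with 0 of 4 called.

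Pools of 1 genotype differed among themselves in a way the 4 genes shared. In each of the 4 groups every batch 2 library lay above every batch 1 library for each gene, 16 of 16 cases, which held in all 4 groups for 7.64% of the genes tested. The 16 cases count both libraries of each pool. This contrast was examined after the values were seen. Most Scnn1b-Tg pools were in batch 2 and most WT pools in batch 1. Picking genes for higher levels in Scnn1b-Tg AMs can therefore also favour genes that are higher in batch 2. For this reason the batch values are given as a description and are not read as particular to the 4 genes. The fitted batch difference was 1.07 for Pkdcc (SE 0.09, edgeR adjusted p = 0.00134), 0.69 for Mlph (SE 0.09, edgeR adjusted p = 0.00504), 1.45 for Awat1 (SE 0.28, edgeR adjusted p = 0.0125) and 0.19 for Lrpap1 (SE 0.05, edgeR adjusted p = 0.0441) on the log2 scale, where 12.3% of all genes passed. As each pool enters with 2 libraries, the contrast was also fitted by voom with the pool as a random effect: Pkdcc (1.05, adjusted p = 0.00697) and Mlph (0.74, adjusted p = 0.0147) passed, and Awat1 (1.16, adjusted p = 0.059) and Lrpap1 (0.19, adjusted p = 0.103) did not.

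For Pkdcc and Lrpap1, and for Awat1 in WT AMs, the pools of 1 genotype differed by folds of the order of those between genotypes. Mean Pkdcc in medium was 2.34 times higher in WT 18 than in WT 16 and 17, and 2.06 times higher in Scnn1b-Tg 18 and 19 than in Scnn1b-Tg 17. For Awat1 the ratios were 4.22 and 1.68, for Mlph 1.78 and 1.66, and for Lrpap1 1.21 and 1.15. The call for Awat1 was also lost in edgeR without WT LPS 18 (1.29, edgeR adjusted p = 0.0649), without Scnn1b-Tg LPS 17 (1.57, 0.0514) and without both libraries of Scnn1b-Tg pool 19 (1.32, 0.0537), and that for Lrpap1 under 12 of 19 alternatives. Library preparation, the animals of a pool and the day of culture cannot be told apart in this contrast.

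Partners, here genes whose products work with the 4 proteins or are related to them, were taken from lists. The lists cover receptors, Rab27 factors, acyl ester synthesis and secretory-pathway kinases. The ester list also holds lipases and lipid droplet proteins, and the kinase list also holds the glycosyltransferases Pomgnt2 and B3galnt2. Of 54 partners tested, 0 passed between genotypes in medium and 0 with LPS (edgeR), where 0.262% and 0.051% of all genes passed. At an unadjusted p under 0.05 (edgeR) were 13 and 5 of the 54, against 1784 and 931 of all 13729 genes. Voom with the pool as a random effect called 0 in each. DESeq2, which called 3.64% of all genes in medium and 1.06% with LPS, called 5 and 3: in medium Lrp1 (0.46), Lrp8 (-0.57), Myo5a (0.63), Scd2 (-0.58) and Fam20c (0.44), and with LPS Rab32 (0.34), Scd2 (-0.77) and Cidec (-0.62), all on the log2 scale. With LPS 7 of 54 rose and 19 fell in WT AMs, and 9 rose and 21 fell in Scnn1b-Tg AMs, which is 48.1% and 55.6% called against 30.9% and 36.7% of all genes.

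**Figure D3:**
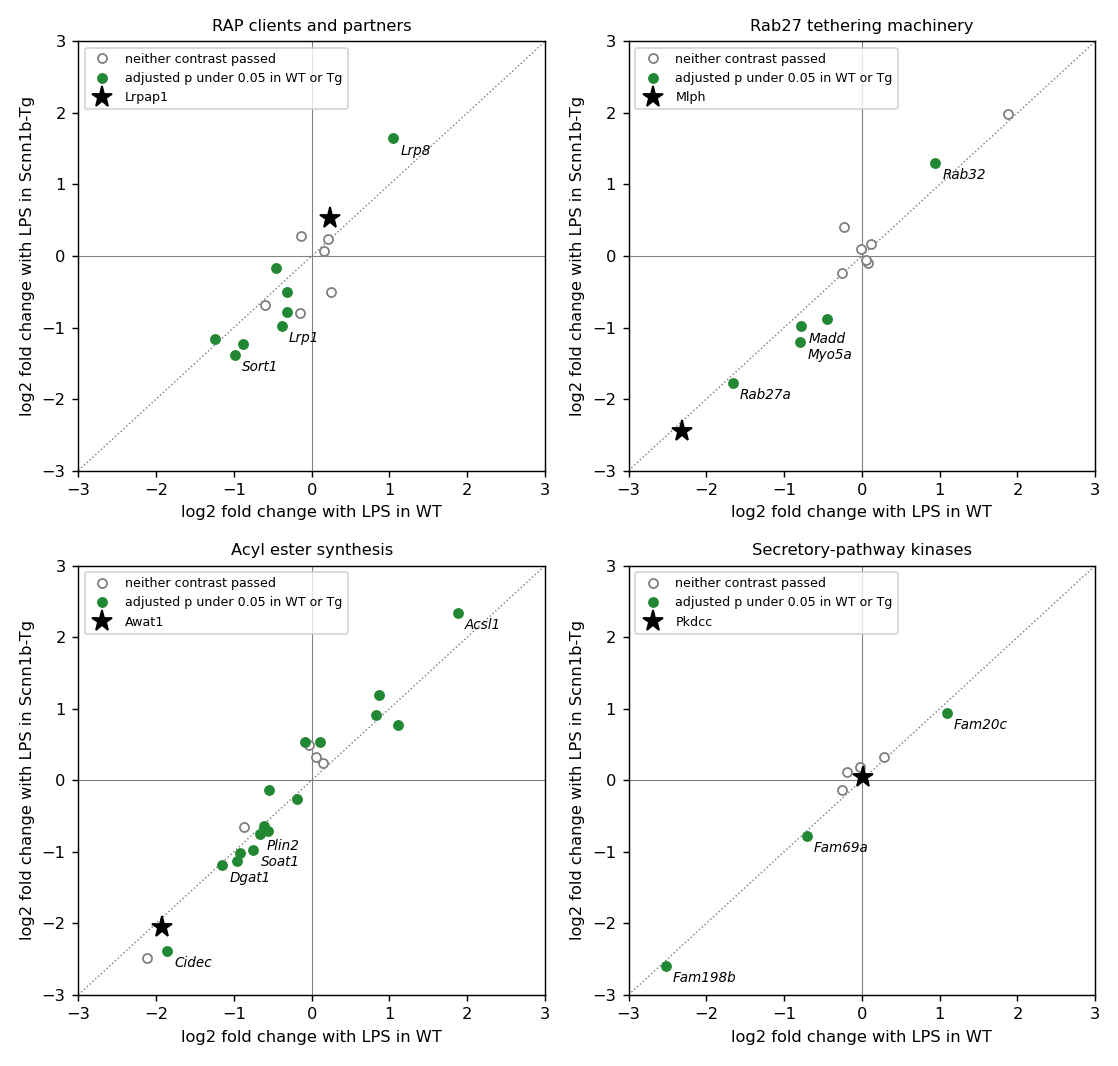
Log2 fold changes with LPS in WT (x axis) and Scnn1b-Tg AMs (y axis) for the tested partners of each gene, filled green where adjusted p was under 0.05 in either genotype, with the gene itself as a star and equal responses on the dotted line. Rab27a, Myo5a and Mlph lie in the lower left, Lrpap1 lies on the side opposite to Lrp1 and Sort1, and Pkdcc sits at the origin.

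For Mlph, both other parts of the melanosome-type tether fell with LPS. Rab27a, the GTPase that Mlph binds, was at 4.17, 3.71 and 4.06 CPM in WT medium and at 1.34, 1.65 and 0.755 CPM in WT LPS, with no overlap. Its log2 fold change in WT AMs was -1.66 (SE 0.29, adjusted p = 0.00131 by edgeR) and in transgenic AMs -1.78 (SE 0.29, adjusted p = 0.000609 by edgeR), and its exons overlap those of Gm27186, so its reads are uncertain. Myo5a, the motor, fell from 192.8, 219.0 and 199.8 to 104.5, 141.3 and 109.1 CPM in WT (-0.79, SE 0.16, edgeR adjusted p = 0.00382). In transgenic AMs it fell as well (-1.21, SE 0.17), and the difference between the responses did not pass (adjusted p = 0.918).

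Of the 12 tested genes of the Rab27 list 1 rose and 3 fell in WT and 1 rose and 4 fell in Scnn1b-Tg AMs, shares of 33.3% and 41.7% that are near the 30.9% and 36.7% of all genes. Madd, the exchange factor of Rab3 and Rab27 GTPases, fell (-0.78 and -0.99), and Myo7a, another motor for Rab27a-bearing organelles, fell in Scnn1b-Tg AMs (-0.88) and had -0.45 in WT (edgeR adjusted p = 0.0572). Rab32, a GTPase of lysosome-related organelles, rose in both (0.94 and 1.30). The median log2 fold change of the list was -0.12 in WT and -0.08 in Scnn1b-Tg AMs, against 0.00 and -0.02 over all genes. Other Rab27 effectors were low: Myrip, Sytl1, Sytl2, Sytl3, Exph5 and Rph3al did not pass the filter on low counts, nor did Rab27b and Myo5b.

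For Lrpap1, most of the partners described here went the other way or did not pass. Lrp1, the most abundant receptor of the list, was at 715.0, 749.8 and 860.1 CPM in WT medium and at 476.8, 645.1 and 654.5 CPM in WT LPS, while the Scnn1b-Tg pools went from 1052, 1103 and 1100 CPM to 591.6, 554.1 and 510.1 CPM. Its log2 fold change in WT AMs was -0.39 (SE 0.12, adjusted p = 0.0282 by edgeR) and in transgenic AMs -0.97 (SE 0.12, adjusted p = 8.26e-05 by edgeR), with no overlap in either. Sort1 (sortilin, a sorting receptor that RAP also binds) fell by 0.99 and 1.39 on the log2 scale, with exons that overlap Gm12523, and Lrp4 by 0.89 and 1.24.

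Against these, Lrp8, a receptor for reelin and apolipoprotein E, rose from a mean of 21.7 to 44.6 CPM in WT (1.05, SE 0.15, edgeR adjusted p = 0.000428), and in transgenic AMs from 12.9 to 41.1 CPM (1.64, SE 0.16). In all, 1 of 14 tested genes of the list rose and 5 fell in WT, and 1 rose and 6 fell in Scnn1b-Tg AMs (42.9% called in WT and 7 of 14 in Scnn1b-Tg AMs, against 30.9% and 36.7% of all genes), with medians of -0.32 and -0.60. Apoe, a ligand of these receptors, fell (-1.24 and -1.16), as did Mylip, a ubiquitin ligase for lipoprotein receptors, in WT (-0.46, and -0.17 in Scnn1b-Tg AMs without a call). Lrp6, a Wnt coreceptor, and Dab2, an endocytic adaptor whose exons overlap Gm18888, passed in Scnn1b-Tg AMs (-0.50 and -0.78) and had -0.32 each in WT. Mesd, another chaperone of these receptors, whose exons overlap Gm49493, did not pass (0.25, SE 0.49, and -0.51, SE 0.49). Lrp2 and Vldlr, which RAP binds tightly, did not pass the filter on low counts.

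For Awat1, the nearest relative was not detected: Awat2 had 0 counts in all 12 libraries, which allows up to 0.166 CPM in the shallowest library, and DGAT2-family member Dgat2 was at a mean of 6.64 CPM in WT medium and passed the test in Scnn1b-Tg AMs (0.53, SE 0.13, edgeR adjusted p = 0.00791; 0.11 in WT, with an adjusted p of 0.84 for the difference of the responses). Far1, which makes the fatty alcohols that Awat1 uses, showed 0.15 and 0.24 on the log2 scale and did not pass, with means of 51.1 to 63.2 CPM over the groups and exons that overlap Far1os. Other ester-forming enzymes fell with LPS: Dgat1, for triacylglycerol, had -1.15 (SE 0.15, edgeR adjusted p = 0.000202) and -1.19, and Soat1, for cholesteryl esters, had -0.75 and -0.98. Proteins of the lipid droplet, Plin2 (-0.67 and -0.75) and Cidec (-1.86 and -2.39), fell as well.

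Acyl-CoA synthetases rose, with Acsl1 at 1.88 (SE 0.23, edgeR adjusted p = 0.00011) and 2.34, Acsl4 at 0.83 and 0.91, and Acsl5, whose exons overlap Zdhhc6, at 0.87 and 1.19. Of 21 tested genes of the list 4 rose and 9 fell in WT and 6 rose and 9 fell in Scnn1b-Tg AMs (61.9% and 71.4% called, against 30.9% and 36.7% of all genes), with medians of -0.55 and -0.27. The desaturases Scd1 (-0.93 and -1.02) and Scd2 (-0.96 and -1.14, exons overlapping Mir5114), the elongase Elovl5 (-0.62 and -0.64) and the triacylglycerol lipase Pnpla2 (-0.57 and -0.71) fell in both genotypes, and Soat2, a low-expressed relative of Soat1, rose in both (1.11 and 0.78). Lipe, a lipase whose exons overlap 4732471J01Rik, passed in WT alone (-0.55, and -0.14 in Scnn1b-Tg AMs). Plin3 (-0.27, and -0.19 in WT) and Acsl3 (0.54, and -0.09 in WT; exons overlapping Utp14b) passed in Scnn1b-Tg AMs alone, and none of these had a call for the difference between genotypes. Genes that fell thus include makers and stores of neutral lipid esters, but also lipases.

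For Pkdcc, which did not respond, 3 genes of the kinase list did. Fam20c, the kinase of secreted phosphoproteins, rose from a mean of 202.7 to 432 CPM in WT (1.09, SE 0.11, edgeR adjusted p = 3.33e-05), and in transgenic AMs from 266 to 514 CPM (0.94, SE 0.11). Fam198b, a Golgi protein, fell by 2.52 and 2.60 on the log2 scale and Fam69a by 0.71 and 0.78; the exons of Fam69a overlap Rpl5 and those of Fam198b Gm36569. The other 4 of 7 tested genes did not pass, so that 42.9% were called in each genotype, against 30.9% and 36.7% of all genes. With the replicate block, in which each pool is its own term, Fam20b (0.27 and 0.32) and Pomk (-0.26 in WT) also passed and the list count went from 3 to 5.

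The genes on either side of each locus were compared between genotypes, to describe the surroundings of each. None of the 40 nearest tested genes, 5 on each side, passed in medium or with LPS (edgeR, 0 of 40 in each), where 0.262% and 0.051% of all genes passed. With shares this low, 0 of 40 is not read as a result. At an unadjusted p under 0.05 (edgeR) were 9 and 3 of the 40, against 1784 and 931 of all 13729 genes. Voom with the pool as a random effect called 0. DESeq2, which called 3.64% of all genes in medium and 1.06% with LPS, called Acox3 in medium and Scly and Adra2c with LPS. For the 30 neighbours of at least 1 CPM the log2 differences ran from -0.79 to 0.63 in medium and from -0.79 to 0.50 with LPS, and their starts lay 53.5 to 2487 kb away.

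**Figure D4:**
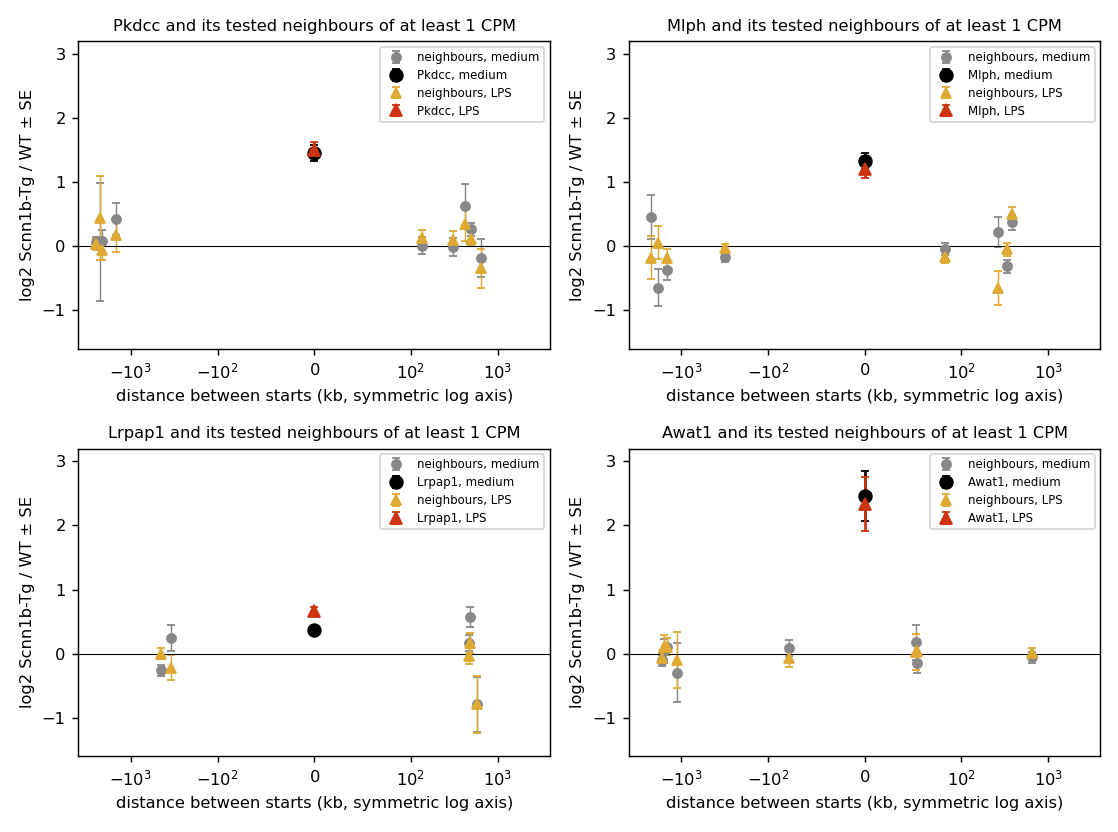
Log2 difference between Scnn1b-Tg and WT AMs (± SE) in medium and with LPS for each of the 4 genes, at 0 kb, and for tested neighbours of at least 1 CPM, by distance between gene starts in kb (symmetric log axis). Neighbours of Pkdcc, Mlph and Awat1 lie within 0.65 of 0 while these genes lie above 1, and Lrpap1 in medium lies within the range of its neighbours.

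The nearest neighbours were Eml4 and Cox7a2l for Pkdcc (0.01 and -0.01 in medium), Col6a3 and Lrrfip1 for Mlph (1.16, SE 0.95, and -0.04) and Igbp1, Kif4 and Pdzd11 for Awat1 (0.09, 0.17 and -0.15; the exons of Kif4 and Pdzd11 overlap), all without a call. Nearest to Lrpap1 were Dok7, 49.0 kb away (2.79, SE 1.93, in medium and 1.04 with LPS), and Rgs12, 156 kb away (0.95, SE 0.64, and 0.28), both below 1 CPM and without a call. Acox3, a peroxisomal oxidase 477 kb away, had 0.57 (SE 0.15) in medium, which was more than the 0.36 (SE 0.07) of Lrpap1 itself. Adra2c, an adrenoceptor gene 173 kb away, also had every Scnn1b-Tg library above every WT library, but at very low counts: 3 to 6 in WT medium, 0 in all WT LPS libraries, 20 to 103 in Scnn1b-Tg medium and 6 to 69 with LPS.

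The genes whose profile over the 12 libraries was most like that of each member were ranked among 11155 genes of at least 1 CPM by Pearson r of log2 CPM, as a description of libraries that share pools and batches. The step between genotypes for which the members were picked enters these r values as well. Mlph was most like Tmem35b (r = 0.976), Cyp27a1 (0.9754), Mfge8 (0.973), Macrod1 (0.973) and Cd37 (0.972). Awat1 was most like Maf1 (r = 0.959), Per3 (0.959), Speg (0.958), Mast4 (0.952) and Wdr91 (0.945).

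Pkdcc was most like Hist1h3e (r = 0.943), Ubald2 (0.921), Pura (0.905), Il15 (0.903) and Ifitm2 (0.899). Lrpap1 was most like Hook2 (r = 0.943), Rasa4 (0.924), Kitl (0.922), Enpp4 (0.921) and Wipi1 (0.917). Among the 4 genes themselves r was 0.89 for Mlph with Awat1, 0.80 for Pkdcc with Awat1, 0.80 for Pkdcc with Lrpap1, 0.54 for Pkdcc with Mlph, 0.41 for Lrpap1 with Awat1 and 0.02 for Mlph with Lrpap1 (n = 12 libraries). The selection gave all 4 genes a step in the same direction between genotypes, so these r values are not independent of it.

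After the group means were subtracted, the variation between pools is left, and the difference between batches described above is part of it. On this scale all 6 pairs of the 4 genes had r of at least 0.79, the highest being Pkdcc with Mlph (0.943) and Lrpap1 with Awat1 (0.887). As batch 2 libraries were higher for all 4 genes, these r values and the rankings below are not separate from the batch contrast. Pkdcc then had rank 3 of 11155 genes for Mlph. The genes most like Awat1 on this scale were Phf11d (r = 0.973), Fcgr1 (0.969), Ifitm3 (0.954), Nmi (0.953) and Psmb9 (0.952), and those most like Pkdcc were Ccdc84 (0.969), Snrnp48 (0.962), Ccnt2 (0.962), Ch25h (0.961) and Snhg20 (0.961). The nearest to Mlph were Mrgbp (0.950) and Ap1ar (0.949) and to Lrpap1 Zfp382 (0.955), Pdgfa (0.952) and Bicdl1 (0.951). With 6 pools, and 12 values of which each pool gives a pair, these rankings rest on few independent points.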

How the data were processed

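RNA of 12 libraries from 6 pools of AMs was sequenced. Per the labels and methods, the authors aligned reads to mm10 with HISAT2 in unstranded mode, quantified GENCODE M20 with StringTie and deposited whole-number estimated counts per gene, in which 1 read can be worth more than 1 count. The labels describe adherent lavage cells and the methods cells sorted by flow cytometry, and which applies was not settled. Libraries of a group came from separate pools, so the spread within a group is that between pools. The main fit took all 12 libraries as independent. Its LPS tests thus did not use the pairing within pools, and its batch contrast counted both libraries of a pool. Fits with the pool as a block or a random effect are among the alternatives.

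Counts were analysed as deposited with edgeR 4.0.16 in R 4.3.3: filterByExpr (minimum count 10, minimum total 15), TMM, quasi-likelihood fits of group means plus the batch over all 12 libraries, and Benjamini-Hochberg adjustment over 13729 genes with a threshold of 0.05, two-sided. The fit was tested on simulated counts with known fold changes for LPS in Scnn1b-Tg AMs. These counts held no batch effect and no link between libraries of a pool, so the simulation does not bear on either. Alternatives were DESeq2 1.42.0, voom with the pool as a random effect (limma 3.58.1), DESeq2 size factors, other filters, counts divided by 5, no batch term, the 2 groups alone, the pool as a block and each library left out. Medium and LPS libraries of a genotype were paired by the number in their labels, which is taken to name a pool of animals. Their deviations from group means correlated at r = 0.137 to 0.335 over genes. Libraries with the same number also share a batch, so this correlation cannot by itself show that they share animals. Xist in Scnn1b-Tg 17 was 24.6 CPM in medium and 8.08 CPM with LPS, and the pairing was not tested further.

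The members, partner lists and tests were chosen with earlier results of these data known. The contrast between batches and the fit without Scnn1b-Tg pool 19 were added after the values were seen. Named were the 4 genes, partners by role, the 5 tested genes on each side of each locus and the 5 most similar profiles. Symbols and positions came from GENCODE M21. Intervals and floors cover counting error only where they are based on counts, as amplified copies were not told apart from separate molecules. Y-linked genes were not analysed here. Of the RAP list, 2 members are not reported here and were left out of the list counts.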

Additional observations from a re-analysis of the deposited data

How the results depend on the processing

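Over 21 alternatives the fitted genotype fold in medium ran from 1.27 to 1.34 for Lrpap1 and from 4.09 to 7.03 for Awat1, where the selection fixed the direction. The number that changed with LPS was 3 of 4 in both genotypes in the fit described; without a batch term it was 1 in WT. The number called between batches was 4, and 2 with the pool as a random effect and without Scnn1b-Tg pool 19, and ranged from 2 to 4 when each library was left out. With DESeq2, the genes called between genotypes were 2 in each of the RAP, Rab27 and acyl ester lists, 1 among the kinases and 3 among the neighbours, against 0 in edgeR. With the replicate block the kinase list had 5 genes changed with LPS and not 3, and the paired fit changed no call of the 4 genes (Lrpap1 in WT 0.24, adjusted p = 0.0203). Over all genes the count called between genotypes in medium was 36, with 4 without Scnn1b-Tg medium 17 and 500 with DESeq2; with LPS it was 7, between 1 and 146; and between batches 1684, between 213 (without Scnn1b-Tg LPS 17) and 2615. The causes of these shifts were not tested. Depth limits Mlph and Awat1 in WT LPS, with 40 to 203 counts.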
